A study of Homo sapiens with 8 samples.

Results

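Urea cycle and amino acid breakdown genes encode the enzymes and carriers with which hepatocytes take nitrogen and carbon out of amino acids. A list of 51 such genes was followed across hepatoma cells in which KLHL23, a Kelch-like protein gene, had been knocked down. A gene was measured through the probe sets that the platform annotation pairs with its symbol alone, and of these the probe set with the highest mean over the 8 arrays stood for it. This gave 47 of the 51 genes, among 19775 genes on the array. GLS2, SDS, SDSL and SARDH were not analysed here.

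The study profiled Hep-3B and Huh7, established lines from human liver cancers, on Affymetrix arrays. All cells, controls included, carried an shRNA lentivirus given at an MOI (virus per cell) of 2, and puromycin followed after 48 hours. The 4 groups were Hep-3B with a hairpin against luciferase (shLuc, the control), Hep-3B with a hairpin against KLHL23 (shKLHL23), Huh7 with shLuc and Huh7 with shKLHL23, with 2 arrays in each, numbered 1 and 3. The labels do not state that the arrays of a group came from separate cultures. The p-values therefore reflect the scatter of these arrays alone, which may be technical. A single name is given for the knockdown hairpin, so an effect of KLHL23 loss and an effect of that hairpin on other transcripts cannot be told apart. Values are log2 expression, where a difference of 1 is a doubling, and each difference is given with its SE from the limma fit to all 8 arrays.

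As background, ammonia enters the urea cycle in mitochondria, where CPS1, switched on by the product of NAGS, makes carbamoyl phosphate and OTC joins it to ornithine. Citrulline leaves through SLC25A15, SLC25A13 brings out aspartate, and ASS1, ASL and ARG1 complete the cycle in the cytosol. The nitrogen arrives largely through aminotransferases and glutamate dehydrogenase, and each amino acid has its own chain of enzymes for the carbon. Several of these chains, those for tyrosine, tryptophan and histidine among them, are hallmarks of mature hepatocytes.

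The promoters of the 4 genes whose knockdown response differed between the lines are printed here because the comparison of the lines turns on them. Each is the 200 bases before a transcription start of RefSeq (GRCh38.p14), 5′ to 3′ on the gene's strand, in lower case, with capitals for matches to the motifs named beneath. CPS1 has 3 starts there, and the arrays do not show which was used.
BHMT, chr5:79111609-79111808, plus strand: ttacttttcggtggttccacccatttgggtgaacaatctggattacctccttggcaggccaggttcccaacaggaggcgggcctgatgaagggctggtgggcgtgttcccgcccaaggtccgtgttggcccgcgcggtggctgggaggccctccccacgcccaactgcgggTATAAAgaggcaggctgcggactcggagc
CDO1, chr5:115816660-115816859, minus strand: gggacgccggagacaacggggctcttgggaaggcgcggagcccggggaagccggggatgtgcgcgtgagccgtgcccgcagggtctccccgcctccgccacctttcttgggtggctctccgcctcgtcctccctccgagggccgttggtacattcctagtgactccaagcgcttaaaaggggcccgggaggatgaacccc
SLC25A13, chr7:96322099-96322298, minus strand: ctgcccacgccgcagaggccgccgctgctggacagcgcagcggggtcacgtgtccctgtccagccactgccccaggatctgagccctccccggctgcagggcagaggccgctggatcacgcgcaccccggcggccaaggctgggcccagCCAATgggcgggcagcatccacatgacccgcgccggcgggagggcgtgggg
CPS1, chr2:210477485-210477684, plus strand: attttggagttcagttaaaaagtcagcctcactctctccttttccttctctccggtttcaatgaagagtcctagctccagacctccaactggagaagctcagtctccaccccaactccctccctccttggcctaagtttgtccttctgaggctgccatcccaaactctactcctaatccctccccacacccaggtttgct
CPS1, chr2:210519518-210519717, plus strand: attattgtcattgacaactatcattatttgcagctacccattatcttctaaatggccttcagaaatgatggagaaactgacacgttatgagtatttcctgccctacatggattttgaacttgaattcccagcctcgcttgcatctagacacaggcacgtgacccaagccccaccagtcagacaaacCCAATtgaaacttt
CPS1, chr2:210593155-210593354, plus strand: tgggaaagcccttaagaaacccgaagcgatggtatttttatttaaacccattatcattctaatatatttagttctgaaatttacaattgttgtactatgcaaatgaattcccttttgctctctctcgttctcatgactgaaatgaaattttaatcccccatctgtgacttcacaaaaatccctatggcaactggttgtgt

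These promoters differ in base composition. In windows from 250 bases before to 50 after the start, those of CPS1 hold 1, 3 and 3 CpG dinucleotides, against 21 in that of BHMT, 27 in that of SLC25A13 and 30 in that of CDO1. The median was 22.5 over the 54 starts of the 42 members found in the promoter table, and 14 over all 35116 starts. Letters were searched on both strands for the TATA box (TATAAA), the C/EBP motif (TTNNGCAA), the composite C/EBP-ATF motif (TGATGNAA), the HNF4 core (CAAAGNNCA), HNF1 (GTTAAT) and the CCAAT box (CCAAT). A C/EBP-ATF match can overlap a C/EBP match. BHMT has a TATA box that begins 29 bases before its start, and SLC25A13 has a CCAAT box 51 bases before. For CPS1, 1 start has a CCAAT box 14 bases before it, and no match was found in the printed bases of CDO1 or of the other CPS1 starts. Over the members' starts, 20.4% hold TATAAA, 11.1% the C/EBP, 3.7% the composite, 7.41% the HNF4, 7.41% the HNF1 and 42.6% the CCAAT letters. The shares over all starts are 11.5%, 10.5%, 3.62%, 5.28%, 6.88% and 34.6%. A match is a description of letters and shows no binding.

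KLHL23 itself, the targeted gene, fell in Huh7 from 7.89 and 7.87 in control arrays to 5.78 and 5.88 in knockdown arrays (-2.05, SE 0.27, limma adjusted p = 0.00363). In Hep-3B it lay at 7.81 and 7.84 with shLuc and 7.21 and 6.15 with shKLHL23, a difference of -1.14 that did not pass (limma adjusted p = 0.0833), so a Hep-3B result rests on an uneven knockdown. All 11 measured hepatocyte markers, ALB and AFP among them, lay above the array median on all 8 arrays. So did 5 of 6 cholangiocyte markers, 3 of 8 stellate cell and fibroblast markers, 3 of 7 blood and macrophage markers and 1 of 7 endothelial markers. The mean of the hepatocyte markers was 12.47 and 12.46 with shLuc and 12.67 and 12.71 with shKLHL23 in Hep-3B. In Huh7 it was 12.19 and 12.22 with shLuc and 12.17 and 12.53 with shKLHL23. The mean of the cholangiocyte markers was 8.21 and 8.24 with shLuc and 8.73 and 8.72 with shKLHL23 in Huh7. It lay between 9.16 and 9.26 in Hep-3B. Cholangiocyte markers went both ways in Huh7: SPP1 lay at 9.79 and 9.71 with shLuc and 11.59 and 12.12 with shKLHL23, while SOX9 lay at 11.52 and 11.52 and at 11.08 and 10.84. On the ACTB control probes, which gauge RNA integrity, the 3' signal exceeded the 5' signal by 0.442 and 0.537 with shLuc and 0.737 and 0.753 with shKLHL23 in Hep-3B, and 0.873 and 0.833 with shLuc and 0.525 and 0.546 with shKLHL23 in Huh7. The ACTB gap thus moved with knockdown in opposite directions in the lines. The gap of GAPDH was 0.117 and 0.120 with shLuc and 0.223 and 0.236 with shKLHL23 in Hep-3B, and its groups overlapped in Huh7 (0.132 and 0.0887 against 0.148 and 0.112). The part of RNA integrity in the results was not tested.

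In Hep-3B, knockdown raised the transcripts of BHMT, which remethylates homocysteine with betaine, and of CDO1, which starts cysteine oxidation. BHMT lay at 5.20 and 5.45 with shLuc and 6.66 and 7.28 with shKLHL23, and CDO1 at 5.99 and 5.89 with shLuc and 6.64 and 6.96 with shKLHL23. Both knockdown arrays were above both control arrays for each gene, and replicate 3 was the higher. BHMT rose 3.13-fold (log2 difference 1.65, SE 0.18, limma adjusted p = 0.0136) and CDO1 rose 1.82-fold (0.86, SE 0.12, limma adjusted p = 0.0244). These were the 2 called of 47 members, against 0.693% of all genes called. The median difference was 0.13 over the members and 0.02 over all genes, and 29 members were above 0 and 18 below.

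The call of BHMT was lost without Hep-3B control replicate 1 or 3 and with Hep-3B fitted alone (limma adjusted p from 0.000986 to 0.149 over alternatives). CDO1 was called in 1 of 8 fits that left out an array, that without Hep-3B knockdown replicate 1, and its adjusted p ran from 0.00409 to 0.206. The count of called members, like that over all genes, changed with the array left out.

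**Figure D1:**
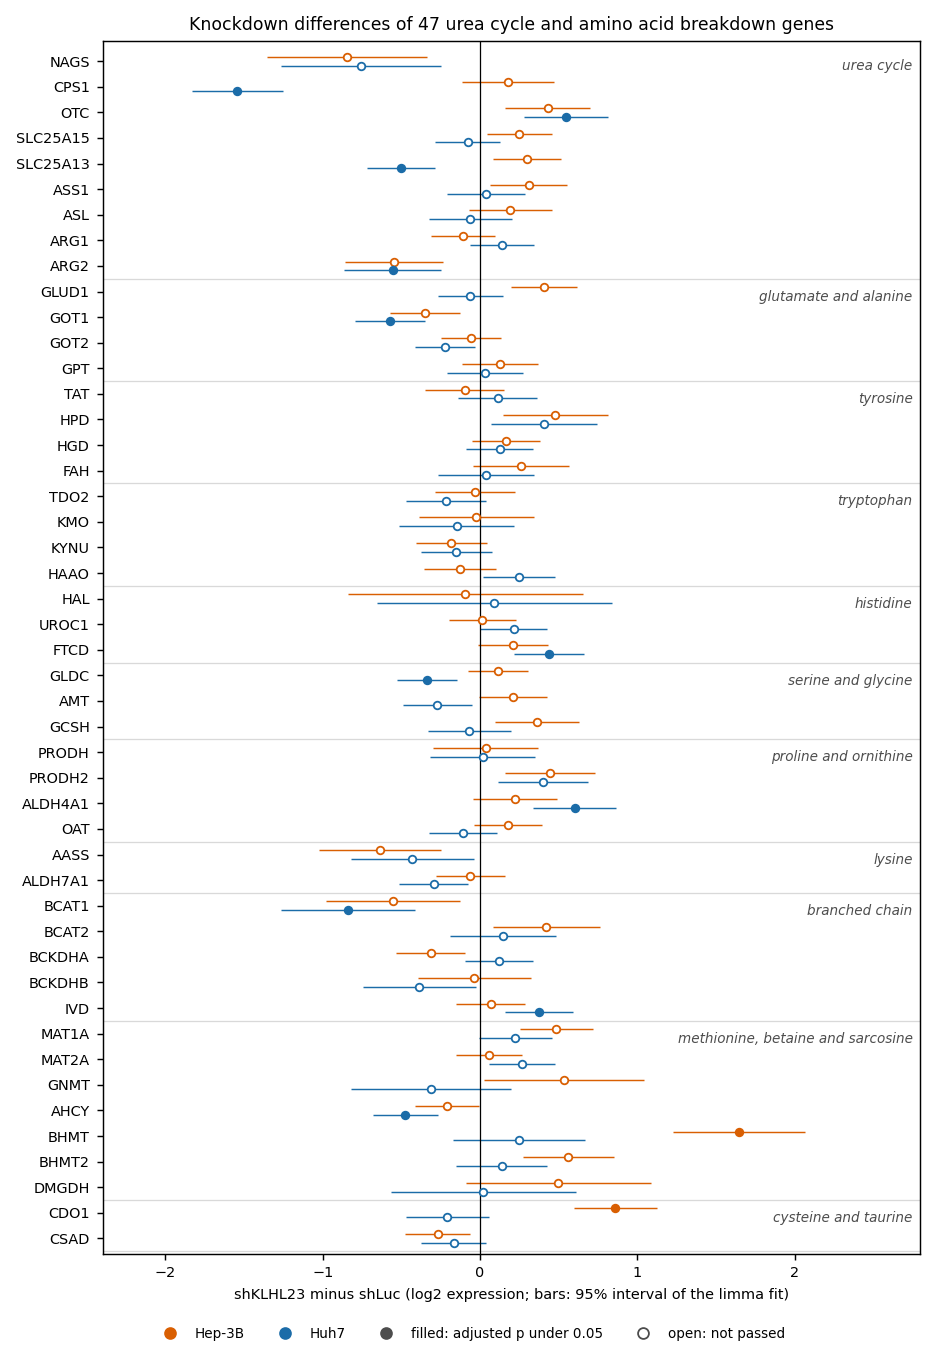
Difference between shKLHL23 and shLuc arrays (horizontal axis, log2 expression) for each of the 47 measured genes (vertical axis, grouped by role), in Hep-3B (orange) and Huh7 (blue), with bars for the unadjusted 95% interval of the limma fit and filled points for adjusted p under 0.05. BHMT (1.65) and CDO1 (0.86) are the filled Hep-3B points, and CPS1 in Huh7 (-1.54) lies furthest to the left.

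The remaining members of the methionine and betaine group were also above 0 in Hep-3B, except AHCY, without passing the test. MAT1A, the S-adenosylmethionine synthetase of mature liver, lay at 8.36 and 8.30 with shLuc and 8.70 and 8.92 with shKLHL23. Its groups did not overlap, and the difference was 0.49 (SE 0.10, limma adjusted p = 0.0697). BHMT2, which methylates homocysteine from S-methylmethionine, lay at 7.64 and 7.63 with shLuc and 7.99958 and 8.39 with shKLHL23 (0.56, limma adjusted p = 0.0777). DMGDH, which oxidises the dimethylglycine that BHMT makes, was at 0.50 with overlapping arrays, and GNMT, which methylates glycine, at 0.54. MAT2A, the synthetase of dividing and extrahepatic cells, was at 0.06 (95% interval -0.15 to 0.26) and AHCY, which hydrolyses S-adenosylhomocysteine, at -0.21.

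None of the 9 urea cycle members passed in Hep-3B, where 6 were above 0 and 3 below. CPS1 lay at 7.66 and 7.58 with shLuc and 7.75 and 7.84 with shKLHL23, a difference of 0.18 with a 95% interval from -0.11 to 0.47. NAGS, which makes the activator of CPS1, lay at 7.94 and 7.91 with shLuc and 7.41 and 6.75 with shKLHL23. Its knockdown arrays were both lower and far apart, and the difference of -0.85 (SE 0.22) did not pass (limma adjusted p = 0.103). ARG2, the mitochondrial arginase, was at -0.55 (limma adjusted p = 0.0913). OTC, below the median of every array, was at 0.43, ASS1 at 0.31, SLC25A13 at 0.30 and SLC25A15 at 0.25. The dimmer probe sets of SLC25A13 were at -0.02 and -0.20, and that of SLC25A15 at -0.20.

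Among the other groups in Hep-3B, GLUD1, which releases ammonia from glutamate, lay at 10.60 and 10.55 with shLuc and 10.90 and 11.05 with shKLHL23 (0.41, limma adjusted p = 0.0766). The other probe set of GLUD1, nearly as bright, was at 0.11. AASS, which begins lysine breakdown, was at -0.64 (limma adjusted p = 0.108) and BCAT1, the cytosolic branched chain aminotransferase, at -0.55 (limma adjusted p = 0.172). A dimmer probe set of BCAT1 was called in Hep-3B in the fit of every probe set (-0.86, limma adjusted p = 0.0457). The 4 tryptophan genes lay between -0.18 and -0.02, and the 4 proline and ornithine genes between 0.04 and 0.44. In all, the arrays of the Hep-3B groups did not overlap in 24 members that were higher and 14 that were lower, against 29.4% and 23.5% of all genes, or 53% in either direction.

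In Huh7, knockdown lowered CPS1, the entry enzyme of the urea cycle, and 10 further members changed by less. CPS1 lay at 8.43 and 8.53 with shLuc and 6.75 and 7.13 with shKLHL23. Every knockdown array was more than 1 log2 unit below every control array. The fall was 2.91-fold (log2 difference -1.54, SE 0.13, limma adjusted p = 0.000685), and the dimmer probe set of CPS1 gave -1.63. The call held in all 17 alternatives run, with differences from -1.73 to -1.35. Of the 47 members 11 were called, 4 higher and 7 lower, or 23.4%, against 13.5% of all genes, 5.75% higher and 7.73% lower. The median difference was -0.06 over the members and -0.00 over all genes.

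SLC25A13, the mitochondrial carrier that supplies aspartate to ASS1, fell in Huh7 as well. It lay at 9.71 and 9.65 with shLuc and 9.15 and 9.21 with shKLHL23, with no overlap (-0.50, SE 0.09, limma adjusted p = 0.0122). Its other 2 probe sets were dimmer, at -0.25 and -0.24, and did not pass, and the mean of the 3 was -0.33 and passed (limma adjusted p = 0.0264). ARG2, which splits arginine in mitochondria, lay at 9.35 and 9.29 with shLuc and 8.93 and 8.60 with shKLHL23 (-0.55, SE 0.14, limma adjusted p = 0.03), and its other probe set gave -0.88. OTC went the other way, at 3.43 and 3.45 with shLuc and 3.93 and 4.05 with shKLHL23 (0.55, SE 0.12, limma adjusted p = 0.0192). OTC lay below the median of every array, so its rise describes a dim signal. NAGS lay at 6.90 and 6.92 with shLuc and 5.88 and 6.42 with shKLHL23, a difference of -0.76 that did not pass (limma adjusted p = 0.058).

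None of the cytosolic steps was called in Huh7. ASS1, which joins citrulline to aspartate, lay at 10.51 and 10.58 with shLuc and 10.49 and 10.68 with shKLHL23, and the 95% interval of its difference was -0.21 to 0.28. ASL, the lyase that follows, lay at 9.82 and 9.95 with shLuc and 9.78 and 9.87 with shKLHL23, and the interval was -0.32 to 0.20. ARG1, the cytosolic arginase that defines the liver cycle, lay between 2.93 and 3.15 on all 8 arrays by its brightest probe set and below the lower quartile of 6 of them. Another of its 4 probe sets lay at 2.87 and 2.82 with shLuc and 2.82 and 4.63 with shKLHL23 in Huh7, high on 1 array alone, and was not called. The differences of the brightest were -0.11 in Hep-3B and 0.14 in Huh7, neither called, and the dim signal limits what could be seen.

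**Figure D2:**
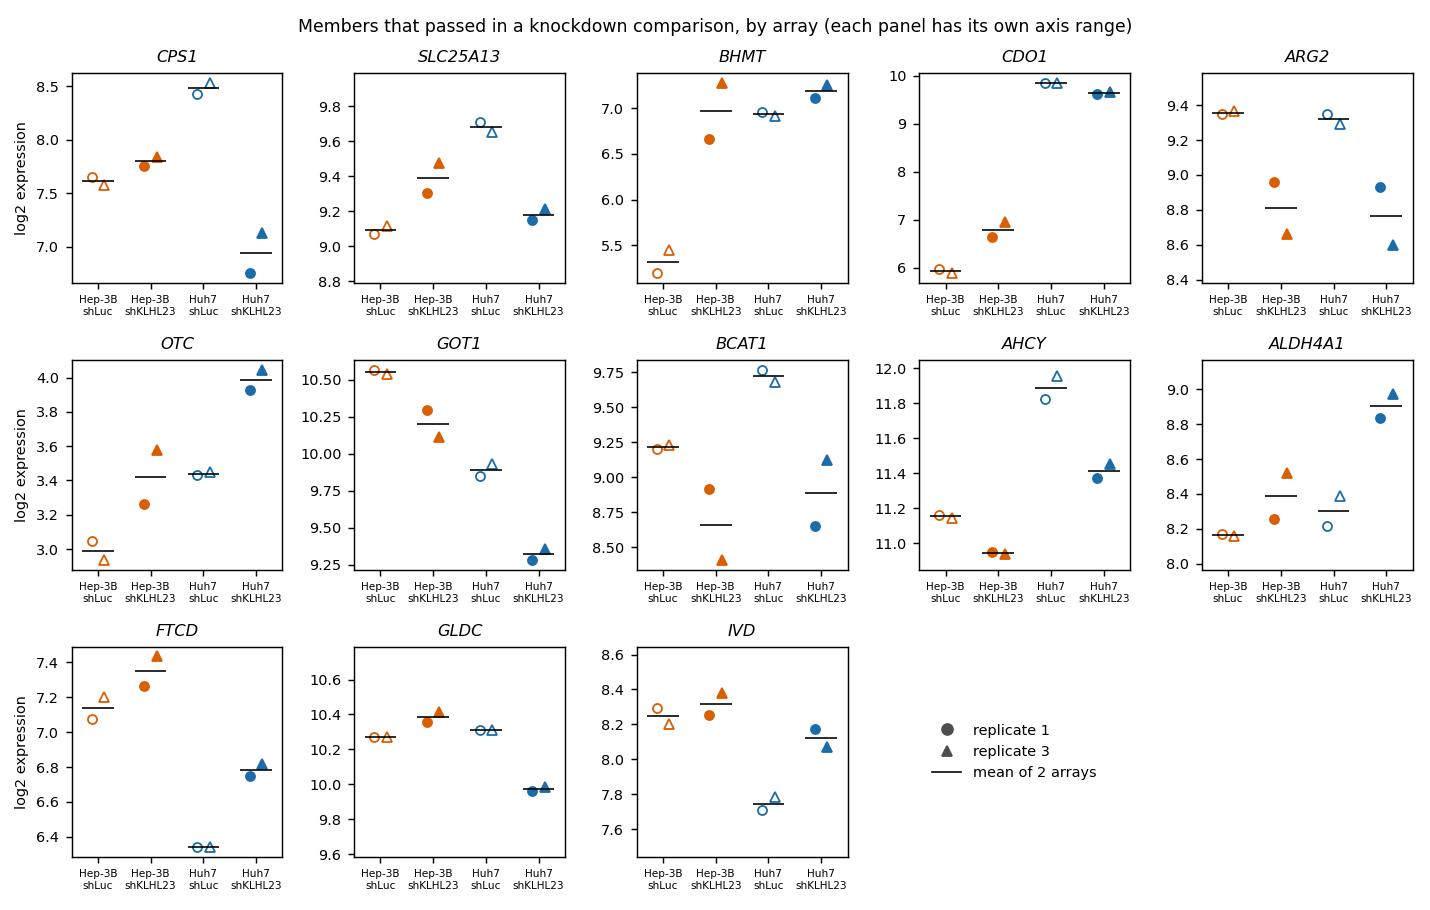
Log2 expression (vertical axis, own range in each panel) of the 13 genes that passed in a knockdown comparison, in the 4 groups (horizontal axis). Open symbols are shLuc and filled symbols shKLHL23, circles are replicate 1, triangles replicate 3 and lines the mean of 2 arrays; CPS1 falls in Huh7 from 8.43 and 8.53 to 6.75 and 7.13, and BHMT rises in Hep-3B from 5.20 and 5.45 to 6.66 and 7.28.

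Enzymes of transamination, methylation and glycine cleavage were also called lower in Huh7. GOT1, the cytosolic aspartate aminotransferase, lay at 9.85 and 9.93 with shLuc and 9.28 and 9.36 with shKLHL23 (-0.57, SE 0.10, limma adjusted p = 0.00852). Its mitochondrial paralogue GOT2 lay at 11.32 and 11.36 with shLuc and 11.13 and 11.11 with shKLHL23 and did not pass (-0.22, limma adjusted p = 0.122). BCAT1, which takes the amino group from leucine, isoleucine and valine, lay at 9.77 and 9.68 with shLuc and 8.65 and 9.12 with shKLHL23 (-0.84, SE 0.19, limma adjusted p = 0.0217). All 4 probe sets of BCAT1 were lower and passed over all probe sets, from -1.04 to -0.70. Its mitochondrial paralogue BCAT2 was at 0.15 (95% interval -0.19 to 0.49), while a dimmer probe set of BCAT2 was at 0.47 and was called in the fit of every probe set (limma adjusted p = 0.0276). AHCY, which removes the S-adenosylhomocysteine left by methylation, lay at 11.82 and 11.96 with shLuc and 11.38 and 11.45 with shKLHL23 (-0.47, SE 0.09, limma adjusted p = 0.0126).

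GLDC, the decarboxylase of the glycine cleavage system, lay at 10.31 and 10.31 with shLuc and 9.96 and 9.99 with shKLHL23. It fell by little (-0.34, SE 0.08, limma adjusted p = 0.0317) and did not pass over all probe sets. Of the other members in that system, AMT was at -0.27 and GCSH at -0.07, neither called. GCSH has related sequences in the genome, as have ASS1, GLUD1 and AHCY, and their probe sets here carry the suffix _s_at, so signal from near copies cannot be told apart.

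Members called higher in Huh7 besides OTC belonged to the breakdown of proline, histidine and leucine. ALDH4A1, which turns the product of proline oxidation into glutamate, lay at 8.22 and 8.39 with shLuc and 8.84 and 8.97 with shKLHL23 (0.60, SE 0.12, limma adjusted p = 0.0133). Its other probe set agreed in direction and size (0.63). FTCD, which passes the one-carbon unit of histidine to folate, lay at 6.34 and 6.34 with shLuc and 6.75 and 6.82 with shKLHL23 (0.44, SE 0.10, limma adjusted p = 0.0211). All 6 probe sets of FTCD were above 0 and 1 passed. The mean of them was not called, and the probe set without cross-match suffix was at 0.06. IVD, which oxidises isovaleryl-CoA from leucine, lay at 7.71 and 7.78 with shLuc and 8.17 and 8.07 with shKLHL23 (0.37, SE 0.10, limma adjusted p = 0.0354), and of its 4 probe sets 3 were above 0 and 0 passed over all probe sets. Their mean, 0.15, was not called (limma adjusted p = 0.249). IVD was called in 8 of 17 alternatives.

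By their brightest probe sets the 4 tyrosine genes were above 0 in Huh7, between 0.04 and 0.41. None was called (limma, with an unadjusted p of 0.0226 for HPD). The dimmer probe sets of TAT were at -0.27 and -0.40 and that of FAH at -0.51, while those of HGD lay between -0.08 and 0.08. HPD, which makes homogentisate, lay at 6.80 and 6.85 with shLuc and 7.11 and 7.37 with shKLHL23. TAT, the aminotransferase that begins this chain, lay between 5.36 and 5.75 on all 8 arrays with a difference of 0.11 (95% interval -0.14 to 0.36). That probe set carries the suffix _x_at, and the other TAT probe sets were dim, with means of 3.21 and 2.68 over the arrays. TDO2, which opens the tryptophan ring, and KMO lay below the lower quartile of all 8 arrays, TDO2 between 2.04 and 2.66, and neither was called. PRODH2, which oxidises hydroxyproline, was at 0.40 (limma adjusted p = 0.0726), and AASS and ALDH7A1 of the lysine chain were at -0.43 and -0.29. A slightly dimmer probe set of ALDH7A1 was called in the fit of every probe set (-0.44, limma adjusted p = 0.036). So were dim probe sets of KYNU (-1.03, limma adjusted p = 0.0129) and BHMT2 (0.53, limma adjusted p = 0.0462). The other probe sets of these genes were not called in Huh7. MAT2A was at 0.27 and MAT1A at 0.23, neither called. The Huh7 groups did not overlap in 16 members that were higher and 21 that were lower, against 26.5% and 27.2% of all genes, or 53.7% in either direction.

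The Huh7 count moved most with the control arrays. Without control replicate 1 or 3 CPS1 was the 1 member called, and 558 and 545 of all genes were called. Without knockdown replicate 1, 8 were called, 6 of them among the 11, and 7.32% of all genes. Without knockdown replicate 3, 13 were called, 8 of them among the 11, and 15.3% of all genes.

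Side by side, 31 of 47 members had the same sign in both lines, 18 above 0 and 13 below, against 60.6% of all genes. Of the others, 11 members were above 0 in Hep-3B and below 0 in Huh7 and 5 the reverse, and over all genes these numbers were 4430 and 3367. Of the 11 called in Huh7, 8 had the same sign in Hep-3B and 0 were called there. ARG2 was at -0.55 in each line by its brighter probe set, and at -0.49 in Hep-3B and -0.88 in Huh7 by its dimmer one.

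The response itself differed between the lines for CPS1, BHMT, CDO1 and SLC25A13, each with a lower response in Huh7 than in Hep-3B. The Huh7 response minus the Hep-3B response was -1.72 for CPS1 (SE 0.18, limma adjusted p = 0.00837), -1.40 for BHMT (SE 0.26, limma adjusted p = 0.0474), -1.07 for CDO1 (SE 0.16, limma adjusted p = 0.0297) and -0.80 for SLC25A13 (SE 0.13, limma adjusted p = 0.0396). These were 4 of 47 members, all lower, against 1.26% of all genes, 0.814% of them lower. CPS1 fell in Huh7 and was at 0.18 in Hep-3B. SLC25A13 fell in Huh7 and was at 0.30 in Hep-3B, where its arrays lay at 9.07 and 9.12 with shLuc and 9.31 and 9.48 with shKLHL23. The dimmer probe sets of SLC25A13 were at -0.02 and -0.20 in Hep-3B. Their differences of responses, -0.23 and -0.03, were not called in the fit of every probe set. BHMT lay at 6.96 and 6.92 with shLuc and 7.11 and 7.25 with shKLHL23 in Huh7 (0.25, 95% interval -0.17 to 0.67), and CDO1 at 9.85 and 9.86 and at 9.63 and 9.66 (-0.21, 95% interval -0.47 to 0.05). KLHL23 itself was at -2.05 in Huh7 and -1.14 in Hep-3B, a difference of responses that was not called (-0.91, SE 0.38, limma adjusted p = 0.316). An effect of the line and one of knockdown depth cannot be told apart.

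The 3 glycine cleavage members were lower in Huh7 response without passing. The difference of responses was -0.48 for AMT (limma adjusted p = 0.147), -0.45 for GLDC (limma adjusted p = 0.123) and -0.43 for GCSH (limma adjusted p = 0.27), while GNMT was at -0.85 with a wide error (SE 0.32, limma adjusted p = 0.256). The median over the members was -0.18, beside -0.03 over all genes. The count of called differences was 4 without Hep-3B knockdown replicate 1, 3 without Huh7 knockdown replicate 3, 0 without either Huh7 control array or Hep-3B control replicate 1 (adjusted p of CPS1 up to 0.0617 over the alternatives), and 1 without Hep-3B control replicate 3, Hep-3B knockdown replicate 3 or Huh7 knockdown replicate 1. CDO1 and SLC25A13 were not called when a gene's probe sets were averaged; the dim probe set of CDO1 was at 0.11.

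More members were called between the control cells of the lines than between knockdown and control within a line. CDO1 was 15.1-fold higher in Huh7 than in Hep-3B controls, and HPD was 11.9-fold lower. CDO1 lay at 5.99 and 5.89 in Hep-3B and 9.85 and 9.86 in Huh7 control arrays (3.91, SE 0.12, limma adjusted p = 7.83e-08). The dim other probe set of CDO1 was at 0.14, and the mean of both at 2.03. HPD lay at 10.41 and 10.39 in Hep-3B and 6.80 and 6.85 in Huh7 (-3.57, SE 0.15, limma adjusted p = 4.82e-07). Of 47 members 29 were called, 21 higher and 8 lower in Huh7, or 61.7%, against 32.7% of all genes, 17.7% higher and 14.9% lower. The arrays did not overlap in 26 members that were higher and 13 that were lower, against 35.5% and 31.6% of all genes, or 67.1% in either direction. The same control arrays enter the knockdown comparisons.

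**Figure D3:**
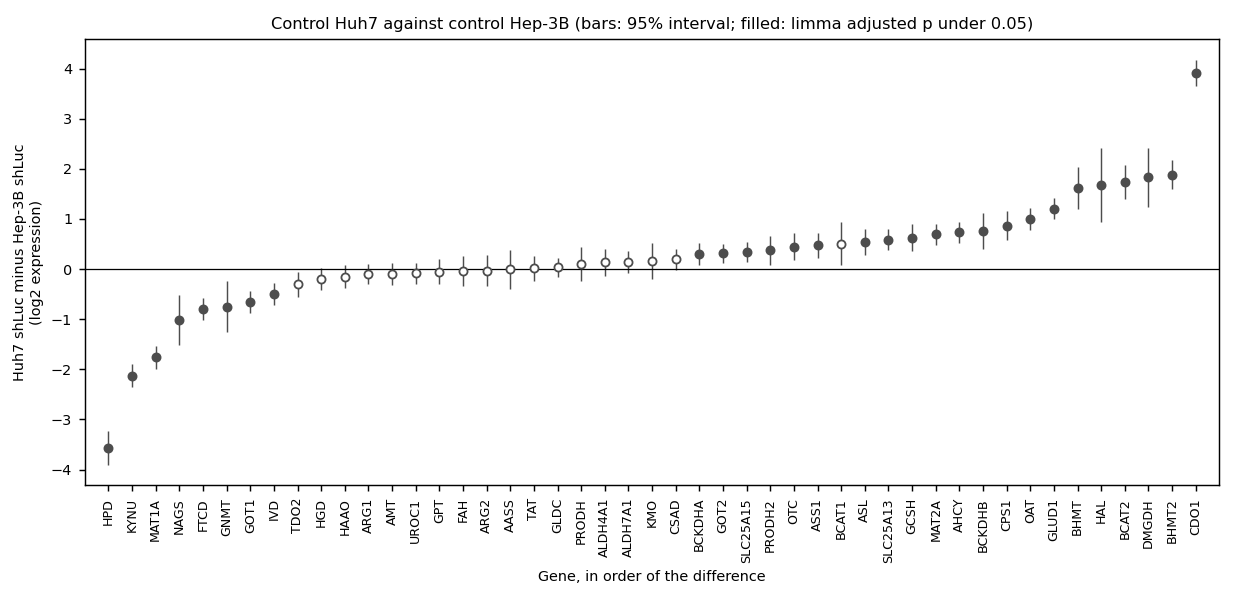
Huh7 shLuc minus Hep-3B shLuc (vertical axis, log2 expression) for the 47 genes in order of the difference (horizontal axis), with unadjusted 95% intervals and filled points for limma adjusted p under 0.05. HPD (-3.57) and CDO1 (3.91) stand at the ends, and BHMT (1.62), DMGDH (1.83) and BHMT2 (1.88) lie together on the right.

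Betaine and methionine enzymes separated the lines. BHMT was higher in Huh7 by 1.62, BHMT2 by 1.88 and DMGDH by 1.83, with limma adjusted p of 0.000192, 8.8e-06 and 0.000661. BHMT2 lay at 7.64 and 7.63 in Hep-3B and 9.54 and 9.49 in Huh7 control arrays, and DMGDH at 4.06 and 3.30 and at 5.56 and 5.47. The DMGDH arrays of Hep-3B were apart and below the array median, so that size is uncertain; its dim probe set was at 0.01 and the mean of both at 0.92. The 3 genes are neighbours on chromosome 5, and BHMT2 and DMGDH start head to head. The 92 bases between their starts, chr5:79069675-79069766 on the plus strand (RefSeq, GRCh38.p14), are shown because both genes face away from them.
BHMT2-DMGDH: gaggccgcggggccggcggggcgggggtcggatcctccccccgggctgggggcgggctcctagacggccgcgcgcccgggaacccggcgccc
This stretch holds 15 CpG dinucleotides, and 87.0% of it is G or C. In Hep-3B knockdown the neighbours BHMT, BHMT2 and DMGDH were at 1.65, 0.56 and 0.50, of which the first was called. The DMGDH arrays overlapped there, and its dim probe set was at -0.002. In Huh7 knockdown the 3 genes were at 0.25, 0.14 and 0.02 by their brightest probe sets, none called. Shared control of these genes was not tested.

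The S-adenosylmethionine synthetases went opposite ways between the lines. MAT1A was lower in Huh7 (-1.76, SE 0.10, limma adjusted p = 3.32e-06), at 6.60 and 6.53 against 8.36 and 8.30 in Hep-3B. MAT2A was higher (0.70, SE 0.09, limma adjusted p = 0.000449), at 9.68 and 9.57 against 8.91 and 8.96. The consumers of S-adenosylmethionine and its product also split, with GNMT lower in Huh7 (-0.75, limma adjusted p = 0.0302) and AHCY higher (0.73, limma adjusted p = 0.000299). The call of GNMT was lost without either Hep-3B control array and without Huh7 control replicate 1 (-0.49, limma adjusted p = 0.202).

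In the urea cycle 6 of 9 members were called higher in Huh7 controls and 1 lower, against 17.7% and 14.9% of all genes. CPS1 was higher by 0.87 (limma adjusted p = 0.000865), SLC25A13 by 0.59, ASL by 0.54, ASS1 by 0.48, OTC by 0.45 and SLC25A15 by 0.34, while NAGS was lower (-1.02, limma adjusted p = 0.00724). The other probe set of SLC25A15 was at -0.19 and the mean of both was not called (0.07, limma adjusted p = 0.589), and the probe set mean of SLC25A13 was 0.28. Calls of ASL, ASS1, OTC and SLC25A15 were each lost without at least 1 control array. ARG1 was at -0.10 and ARG2 at -0.03, neither called. GLUD1 (1.21), OAT, which turns ornithine into a glutamate precursor (1.004), and GOT2 (0.31) were higher in Huh7, and GOT1 was lower (-0.66).

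Elsewhere, KYNU, which cleaves kynurenine, lay at 10.76 and 10.78 in Hep-3B and 8.66 and 8.64 in Huh7 controls (-2.13, limma adjusted p = 9.24e-07). BCAT2 lay at 5.10 and 5.44 in Hep-3B and 6.93 and 7.08 in Huh7 (1.74, limma adjusted p = 3.66e-05), although its other probe set was at -0.08 and the mean of both at 0.83. HAL, which deaminates histidine, lay at 3.50 and 3.60 in Hep-3B, below the array median, and 5.11 and 5.34 in Huh7 (1.68, limma adjusted p = 0.00398). Its other probe sets were at 0.48 and 0.00, and the mean of the 3 was 0.72 (limma adjusted p = 0.0139). FTCD was lower in Huh7 (-0.80, probe set mean -0.53) and was not called when probe sets prone to cross-match were left out (limma adjusted p = 0.412). BCKDHB, a subunit of the branched chain ketoacid dehydrogenase, was higher by 0.77 and its partner BCKDHA by 0.29. BCKDHB did not pass when its probe sets were averaged (limma adjusted p = 0.0628), and BCKDHA was not called in 9 of 17 alternatives. GCSH (0.63) and PRODH2 (0.38) were higher in Huh7 and IVD (-0.50, probe set mean -0.28) was lower, and the other 18 members were not called. Calls of PRODH2 and GOT2 were lost without any 1 of the 4 control arrays.

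A further list of amino acid breakdown, supply and transport genes had 67 measured genes. In Hep-3B 0 of them were called by limma and 18 had an unadjusted p under 0.05, beside 3491 of all 19775 genes. In Huh7 11 were called, 10 lower and 1 higher, or 16.4%, beside the 13.5% of all genes. The falls included CTH (-1.82, limma adjusted p = 0.0301) and CBS (-0.85, limma adjusted p = 0.0158), which make cysteine from homocysteine, the step before CDO1. They also included the asparagine synthetase ASNS (-1.33, limma adjusted p = 0.0491), the arginine carrier SLC7A2 (-1.14, limma adjusted p = 0.00368) and the mitochondrial serine hydroxymethyltransferase SHMT2 (-0.76, limma adjusted p = 0.0116). AMDHD1, which acts on histidine between UROC1 and FTCD, lay at 7.78 and 7.72 with shLuc and 6.86 and 6.72 with shKLHL23 (-0.96, limma adjusted p = 0.00125). HNMT, which methylates histamine, was the gene that rose (0.43, limma adjusted p = 0.0177). CTH in Hep-3B lay at 9.37 and 9.36 with shLuc and 8.62 and 6.81 with shKLHL23 and did not pass (-1.65, limma adjusted p = 0.109), with its low value on replicate 3. ASNS was at -1.44 in Hep-3B, CBS at -0.88, SLC7A2 at -0.57 and SHMT2 at -0.43, none called. AMDHD1 was at 0.20 there and HNMT at 0.008. Of the further list, AMDHD1 alone was called for the difference between the lines.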

How the data were processed

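The authors deposited log2 values. The submitters' processing notes name RMA and Expression Console 1.2. RMA shrinks changes of dim probe sets and hides changes in total RNA. The platform annotation paired 41097 of 54675 probe sets with 1 symbol, 1801 with several and 11777 with none; the first gave 19775 genes, each by its brightest probe set over the 8 arrays. limma 3.58.1 in R 4.3.3 fitted a mean per group to all 8 arrays (4 residual and 4.59 prior degrees of freedom), with Benjamini-Hochberg adjustment over all 19775 genes and calls at adjusted p under 0.05. The number of arrays limits precision.

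The members and lists were chosen with earlier results of these data known, as were the motifs. Arrays are given for members called in a knockdown comparison or their difference, the 10 largest called differences between control lines, and CPS1, OTC, ASS1, ASL, ARG1, ARG2, TAT, TDO2, MAT1A and MAT2A; others where a group is described, and at most 10 genes of the further list. The procedure was tested on simulated data. Alternatives were other normalization, centring, dim gene filter, probe set rules, spread models, array weights, separate fits, a replicate block and leaving out each array.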

Additional observations from a re-analysis of the deposited data

Results flagged for a closer look

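The knockdown response differed between the lines, by limma's test of the difference itself, for 4 members and for 1 gene of the further list. The Huh7 response minus the Hep-3B response was -1.72 for CPS1, -1.40 for BHMT, -1.07 for CDO1 and -0.80 for SLC25A13, and -1.16 for AMDHD1 (limma adjusted p = 0.0098, n = 2 arrays per group). AMDHD1, an enzyme of histidine breakdown, lay at 5.62 and 5.73 in Hep-3B control and 5.89 and 5.86 in Hep-3B knockdown arrays, while it fell in Huh7. KLHL23 was at -2.05 in Huh7 and -1.14 in Hep-3B, and this difference was not called (limma adjusted p = 0.316). The line and the depth of knockdown cannot be told apart here.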

How the results depend on the processing

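No called difference of a member changed sign in the alternatives run. In Hep-3B the count of 2 called members became 7 with an intensity trend and robust eBayes and 7 with array weights. It became 1 when probe sets were averaged per gene and 0 with Hep-3B fitted alone, where 0 of all genes were called. It ran from 0 to 10 when an array was left out, a fit in which the lone array of a group is assumed to vary like the others. The Huh7 count of 11 ran from 1 to 13 when an array was left out. The count of 4 for the difference between lines became 2 with the mean of probe sets and ran from 0 to 4 without an array, and the 29 of the control lines from 21 to 30. The cause of these moves was not tested. Over all genes, the counts were 850 with trend and robust eBayes and 671 with array weights in Hep-3B, against 137.

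With the replicate block, the counts were 3 in Hep-3B, 10 in Huh7, 3 for the difference and 28 for the control lines. Calls not made under the block were GLDC (adjusted p = 0.0791) and IVD (0.0753) in Huh7, SLC25A13 for the difference (0.0545), and GOT2 (0.0552) and BCKDHA (0.0763) between the control lines. The deviations of same-numbered arrays correlated at -0.07 in Hep-3B and 0.06 in Huh7 over genes. Each value compares few arrays, and the labels do not state what the number means. These values therefore cannot decide whether same-numbered control and knockdown arrays were prepared together.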

Other observations

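The knockdown arrays of a line were further apart than its control arrays, over these genes and over all genes. Over the 47 members, replicate 1 minus replicate 3 had an SD of 0.273 in Hep-3B knockdown and 0.259 in Huh7 knockdown, against 0.164 and 0.132 in the control groups. Over all genes these values were 0.222 and 0.25 against 0.157 and 0.171. In Huh7 knockdown the widest gap was that of HAL, at 4.67 in replicate 1 and 5.96 in replicate 3, and in Hep-3B knockdown that of NAGS, at 7.41 and 6.75.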
